A study of Mus musculus with 3 samples.

Results

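A set of 10 genes associated with the thymic cortex was followed in sorted medullary cells: Foxn1, Psmb11, Prss16, Ctsl, Ly75, Dll4, Il7, Kitl, Ccl25 and Cxcl12. They were chosen by symbol from a list of cortical epithelial genes, and all 10 were found among the 19937 genes of the array that carry a single symbol. The 3 libraries came from mature medullary thymic epithelial cells, sorted as EpCAM+, CD45-, Ly51 low and MHC class II high from mice aged 6 weeks, typically with 3 mice pooled. AireKO came from mice without Aire (Aire–/–), Sirt1cKO from Sirt1fl/fl mice that also carry Foxn1-Cre, and WT from Sirt1fl/fl mice without Cre. The strain is given as C57b/6 for all 3. Floxed Sirt1 alleles are named for Sirt1cKO and WT and not for AireKO. By these labels AireKO differs from both WT and Sirt1cKO in that allele as well. Foxn1-Cre places Cre under Foxn1 control, and the labels do not say how this allele was built or whether it alters Foxn1 itself. RNA from the pools was amplified and hybridised to Affymetrix Mouse Gene 1-ST arrays, which report 1 brightness value per probe set. Each genotype had 1 library, so there is no spread between replicates, no test was possible, and every difference below describes a pair of libraries and not the genotypes.

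The thymic cortex is where T cell precursors arrive, commit to the T lineage and are positively selected, and cortical epithelial cells supply the signals for these steps. Foxn1 is the forkhead transcription factor on which thymic epithelium depends, and several genes followed here are known targets of it or need it for their expression. Psmb11 (the β5t subunit of the thymoproteasome), Prss16 (thymus-specific serine protease), Ctsl (cathepsin L) and Ly75 (the endocytic receptor CD205) serve peptide production and uptake in cortical epithelium. Dll4 is the Notch ligand of T lineage commitment, Il7 supports survival of early thymocytes, and Kitl (stem cell factor) is the ligand of Kit. Ccl25 and Cxcl12 attract thymocyte precursors through Ccr9 and Cxcr4. Foxn1, Ctsl and Ccl25 are not confined to the cortex, and Ly51, the surface protein encoded by Enpep, is high on cortical cells and was used here to leave them out.

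Foxn1 is known to bind a short DNA core, GACGC. The 250 bases before the transcription start were therefore searched for GACGC on both strands, where the reverse strand reads GCGTC, in RefSeq windows of GRCm38.p6. Of the 10 genes, 8 had a window, and Prss16 and Il7 had none. A match was found in the first window of 4 of the 8, Psmb11, Kitl, Ccl25 and Cxcl12, and in 22.6% of all 32851 windows. The former counts genes and the latter windows, and a gene can have more than 1 window. Psmb11 held 2 matches, 239 and 62 bases before the start, as did 5.86% of all windows with 2 or more. Foxn1, Ctsl, Ly75 and Dll4 had no such letters in their windows, which says nothing about binding of the factor elsewhere. Shown are the windows of Psmb11 and Ccl25, which hold the core, and of Foxn1, Ctsl and Dll4, which do not hold it and are described in most detail below. Each runs 5′ to 3′ on the gene's strand and stops at the base before the annotated start, with the core in capitals. Whether these annotated starts, that of Ctsl included, are the ones used in these cells was not tested. They lie at chr14:54625060-54625309 (plus strand), chr8:4324960-4325209 (plus), chr11:78386609-78386858 (minus), chr13:64370521-64370770 (minus) and chr2:119325534-119325783 (plus). Ccl25 has another start downstream whose window held no match.
Psmb11: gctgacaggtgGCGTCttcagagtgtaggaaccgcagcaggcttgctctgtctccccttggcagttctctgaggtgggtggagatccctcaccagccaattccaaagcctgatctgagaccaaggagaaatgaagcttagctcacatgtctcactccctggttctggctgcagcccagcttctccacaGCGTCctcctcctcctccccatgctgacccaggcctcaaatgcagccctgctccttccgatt
Ccl25: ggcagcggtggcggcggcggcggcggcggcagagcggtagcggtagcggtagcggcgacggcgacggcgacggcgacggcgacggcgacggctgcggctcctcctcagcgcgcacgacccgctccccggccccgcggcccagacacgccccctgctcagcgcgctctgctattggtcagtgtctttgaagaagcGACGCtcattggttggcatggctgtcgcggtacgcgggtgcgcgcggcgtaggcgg
Foxn1: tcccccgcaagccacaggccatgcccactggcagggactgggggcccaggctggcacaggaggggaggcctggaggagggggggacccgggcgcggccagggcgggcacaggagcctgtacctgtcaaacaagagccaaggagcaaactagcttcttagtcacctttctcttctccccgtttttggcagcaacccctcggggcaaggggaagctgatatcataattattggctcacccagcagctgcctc
Ctsl: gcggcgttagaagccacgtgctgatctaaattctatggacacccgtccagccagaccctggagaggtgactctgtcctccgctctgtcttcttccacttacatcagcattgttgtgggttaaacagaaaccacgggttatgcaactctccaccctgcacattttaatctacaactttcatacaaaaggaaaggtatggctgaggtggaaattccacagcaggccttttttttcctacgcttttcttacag
Dll4: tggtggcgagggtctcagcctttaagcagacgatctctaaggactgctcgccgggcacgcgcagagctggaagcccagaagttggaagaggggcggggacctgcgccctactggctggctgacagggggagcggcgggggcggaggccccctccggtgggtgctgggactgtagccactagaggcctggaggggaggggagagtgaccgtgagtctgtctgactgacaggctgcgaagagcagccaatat
These windows were picked with the expression values known, and no relation between the core and expression is read from them.

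Facts of the libraries touch every value. The titles and genotype fields were used to name them, but the free-text descriptions of AireKO and Sirt1cKO name each other's genotype, so both names stand for the library so titled. Aire itself had a log2 intensity of 11.55 in AireKO, 11.24 in Sirt1cKO and 11.97 in WT, and Sirt1 had 11.42, 11.27 and 11.40 in that order. Since a probe set may cover exons outside a deletion, neither name is checked by them. The labels give no sex. Xist stood at 6.75 in AireKO, 11.46 in Sirt1cKO and 12.17 in WT, and the Y-linked Eif2s3y at 9.75, 8.92 and 4.23. Genotype and sex therefore cannot be told apart in either comparison with WT. AireKO and Sirt1cKO also differed in Xist, by -4.71, so the same limit holds between them. Background was set for each library at the 95th percentile of the 1027 genes for olfactory receptors, a family with little expression beyond the nose. This bound lay at log2 6.89 in AireKO, 6.34 in Sirt1cKO and 6.02 in WT, and dim genes were therefore hardest to resolve in AireKO. All 6 general epithelial markers were above background in all 3 libraries, from Krt8, a keratin of simple epithelia, at 12.55 in AireKO, 12.96 in Sirt1cKO and 13.44 in WT, to Krt19 at 7.77, 9.23 and 9.59.

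The group as named was not uniformly present. The defining cortical gene Psmb11 had a log2 intensity of 6.54 in AireKO, below that library's bound, 6.68 in Sirt1cKO and 6.74 in WT. It stood 0.34 above the bound in Sirt1cKO and 0.72 above it in WT. Cxcl12 was at 6.17 in AireKO and 6.16 in Sirt1cKO, both within background, and at 6.12 in WT, just above it. The median of all values, log2 6.81, served as a filter: genes whose highest library reached it count as measured. By that filter 8 of the 10 genes were measured, and Psmb11 and Cxcl12 were not. No fold is given for either. The remaining 8 were above background in every library of this medullary sort, so the label of a cortical gene set holds for the symbols and not for the level of its defining gene.

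**Figure D1:**
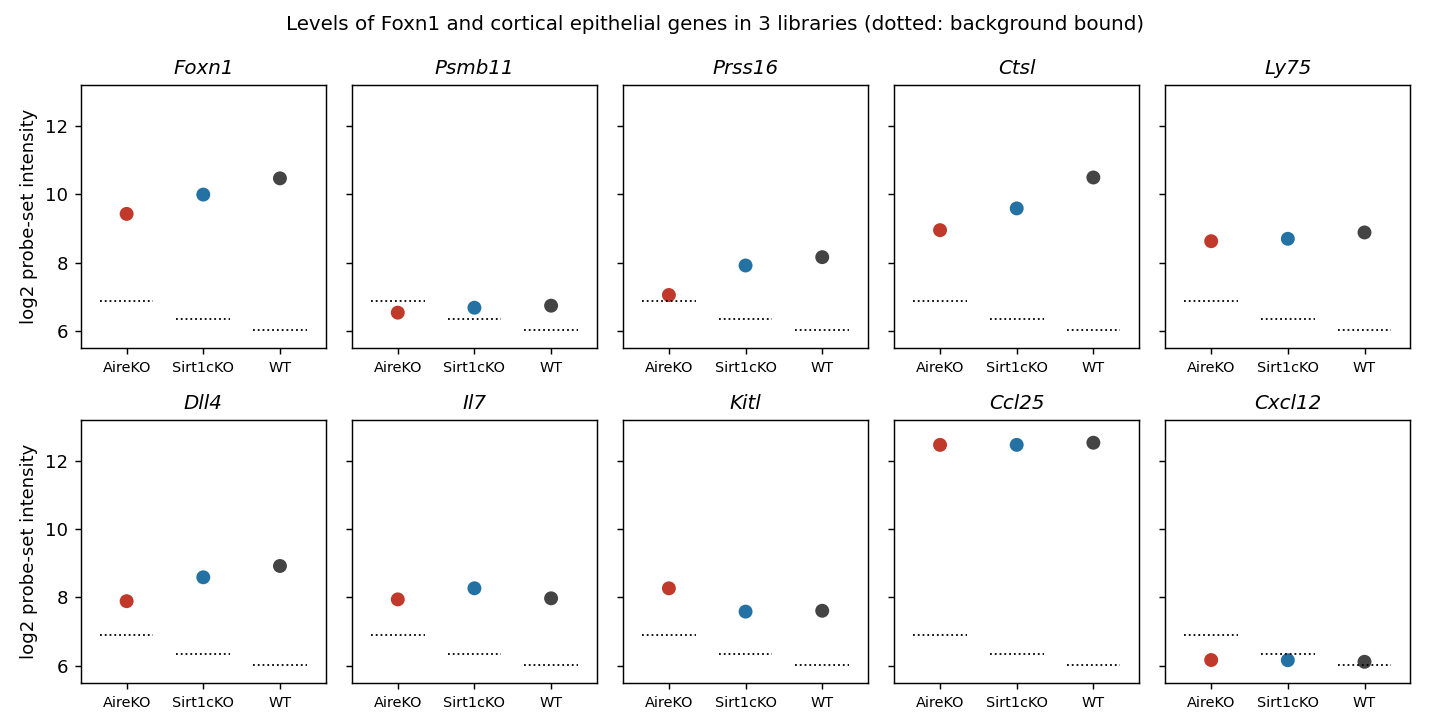
Log2 probe-set intensity (vertical axis) of each of the 10 genes in the AireKO, Sirt1cKO and WT libraries (points, 1 library each), with the background bound of each library dotted. Foxn1, Prss16, Ctsl and Dll4 stand lowest in AireKO and highest in WT, Ccl25 is level, and Psmb11 and Cxcl12 lie at or near the bound. Levels are to be compared within a gene, not between genes.

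The first comparison asked how these genes stood when Aire was missing. In the library titled AireKO, 4 of the 10 genes were at least 2-fold lower than in WT and 0 were at least 2-fold higher, while 6 differed by less. The number lower became 2 after quantile normalization and 1 under each of 3 other scalings. The 4 as deposited were the regulator Foxn1, the proteases Prss16 and Ctsl, and the Notch ligand Dll4. Of the 12556 measured genes, 8.46% passed 2-fold on the lower side and 2.68% on the higher side. Over all genes on the array the shares were 5.51% and 3.2%. The median difference of all 10 genes was -0.23 on the log2 scale, with the unmeasured Psmb11 and Cxcl12 included, so it is not a median of measured members alone. It was -0.19 over measured genes and 0.02 over all genes on the array. After median centring it became 0.041 for the 10 genes and 0.083 for measured genes. The same 2 medians were -0.28 and -0.10 after quantile normalization, and -0.26 and -0.08 after loess. With the median difference of measured genes set to 0, that of the 10 genes was -0.04.

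Foxn1 had a log2 intensity of 9.43 in AireKO, 9.99 in Sirt1cKO and 10.47 in WT (probe set 10388824). Its difference in AireKO minus WT was -1.04, or 2.06-fold lower, and 7.64% of measured genes had a difference as low or lower. It fell short of 2-fold under the 4 other scalings. Foxn1 was thus lowest in AireKO, highest in WT and intermediate in Sirt1cKO, an order that 38.2% of measured genes also had. In these pooled cells, fewer cells that express a gene and less of its RNA per cell cannot be told apart.

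Among the genes of peptide production and uptake, Ctsl differed most. Cathepsin L, a lysosomal cysteine protease, had a log2 intensity of 8.95 in AireKO, 9.59 in Sirt1cKO and 10.49 in WT (probe set 10410124). The AireKO value was 2.91-fold below WT, a difference of -1.54, and 2.01% of measured genes were as low or lower. Prss16 had 7.05 in AireKO, 7.92 in Sirt1cKO and 8.16 in WT (probe set 10408097), a difference of -1.11 in AireKO minus WT, or 2.15-fold. The AireKO value of Prss16 lay only 0.17 above that library's background bound, so its exact size is less sure. Ly75 had 8.63 in AireKO, 8.70 in Sirt1cKO and 8.88 in WT, and its difference of -0.26 in AireKO minus WT became 0.02 after median centring. Ly75 was thus nearly level across the libraries.

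Of the ligands, Dll4 stood lower and Kitl higher in AireKO. Dll4 had a log2 intensity of 7.89 in AireKO, 8.59 in Sirt1cKO and 8.92 in WT (probe set 10474958). AireKO minus WT came to -1.03, or 2.04-fold lower, and fell short of 2-fold under the 4 other scalings. Kitl had 8.27 in AireKO, 7.58 in Sirt1cKO and 7.61 in WT (probe set 10366052). It was 1.58-fold higher in AireKO than in WT, under the 2-fold line, with a difference of 0.66 that 6.98% of measured genes reached or passed. AireKO alone stood apart for Kitl, since Sirt1cKO and WT were nearly equal. Il7 had 7.94 in AireKO, 8.27 in Sirt1cKO and 7.97 in WT, and its small difference of -0.03 in AireKO minus WT turned positive under all 4 other scalings.

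Ccl25, the chemokine that draws Ccr9-bearing precursors, was bright and level. Its brighter probe set (10569962) had a log2 intensity of 12.46 in AireKO, 12.46 in Sirt1cKO and 12.53 in WT. The difference of -0.06 in AireKO minus WT lay between -0.06 and 0.21 over the scalings, so its sign is not fixed. A second, dimmer Ccl25 probe set (10569958) read 6.81 in AireKO, within background, 6.32 in Sirt1cKO, also within background, and 6.31 in WT. The 2 probe sets differ in sign for AireKO minus WT, and the dim one carries little information on AireKO.

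How far the 4 genes passed the 2-fold line depended on the scaling between libraries. The differences of Foxn1, Prss16 and Dll4 lay within 0.11 of that line. After quantile normalization Ctsl and Prss16 remained past 2-fold, and after loess, median centring, or with the median difference of measured genes set to 0, Ctsl alone did. The background share of genes at least 2-fold lower was 6.75%, 6.18%, 4.36% and 5.30% in the same order. The share past 2-fold on the higher side was 3.29%, 3.44%, 5.62% and 4.49%. Foxn1 ranged from -1.04 to -0.77, Prss16 from -1.11 to -0.84, Dll4 from -1.03 to -0.76 and Ctsl from -1.54 to -1.27 over these scalings, all below 0. Kitl ranged from 0.66 to 0.93, all above 0.

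**Figure D2:**
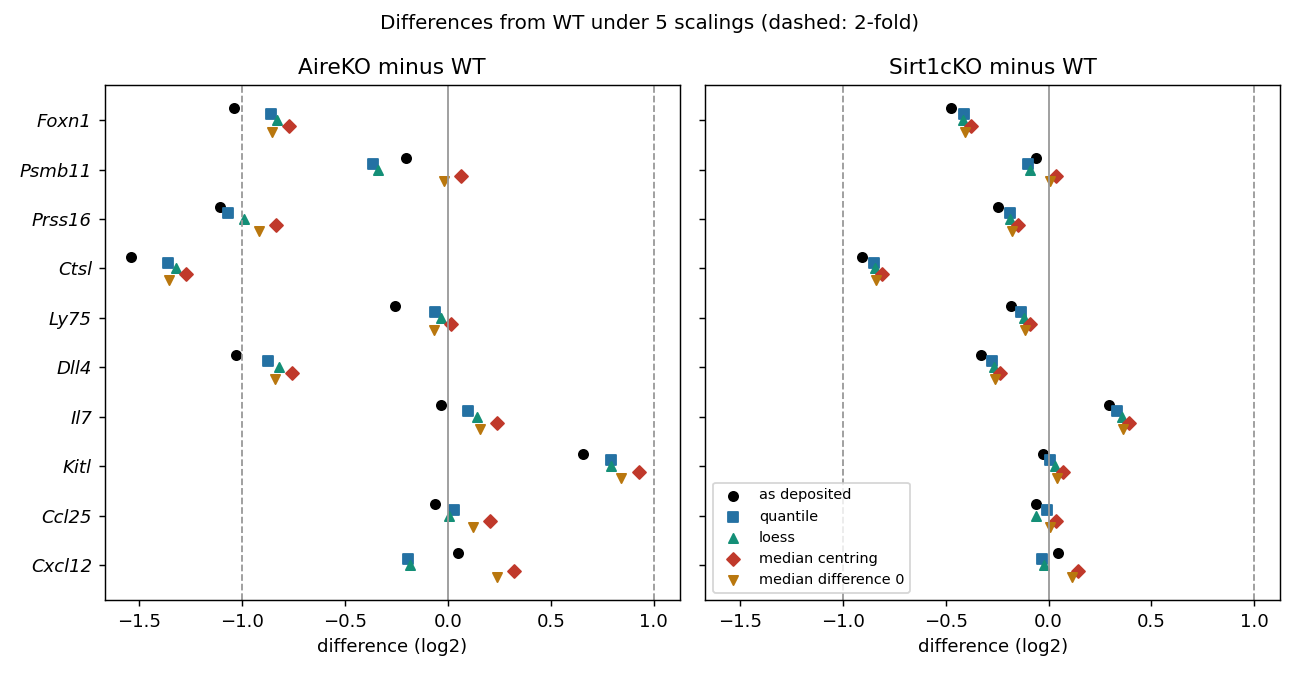
Log2 difference from WT (horizontal axis) of each gene in AireKO (left) and Sirt1cKO (right) as deposited and under 4 other scalings (symbols), 1 library a genotype, with 2-fold dashed. In AireKO, Ctsl stays below -1 under every scaling shown, Foxn1 and Dll4 only as deposited, and Prss16 as deposited and after quantile normalization. In Sirt1cKO no gene passes 2-fold.

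The second comparison asked how the genes stood when Sirt1 was deleted in thymic epithelium. In the library titled Sirt1cKO, 0 of the 10 genes were at least 2-fold lower than in WT and 0 were 2-fold higher, against 1.68% and 0.804% of measured genes and 1.13% and 0.582% of all genes on the array. The median difference of all 10, Psmb11 and Cxcl12 included, was -0.12, against -0.07 for measured genes and 0.003 for all genes on the array. Ctsl again had the lowest value, -0.90 in Sirt1cKO minus WT or 1.87-fold lower, and 2.45% of measured genes were as low or lower. Foxn1 followed at -0.48, or 1.39-fold lower, with 13.1% of measured genes as low or lower. Whether the Cre allele contributes to the Foxn1 value was not tested.

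The other measured members lay between -0.33 and 0.29 in Sirt1cKO minus WT. Dll4 differed by -0.33, Prss16 by -0.24 and Ly75 by -0.19, each of the same sign under every scaling tried. Il7 was the highest, at 0.29, or 1.23-fold higher in Sirt1cKO, again with 1 sign throughout. Kitl, at -0.03, and Ccl25, at -0.06, changed sign with the scaling. Both comparisons with WT share the WT library, so their values for a gene are not independent.

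Set directly against each other, AireKO and Sirt1cKO differed by 2-fold in 0 of the 10 genes, against 2.72% of measured genes lower and 1.04% higher in AireKO, or 1.74% and 1% of all genes on the array. Prss16 was 1.82-fold lower in AireKO than in Sirt1cKO, with a difference of -0.86 that 4.19% of measured genes matched or passed. Dll4 differed by -0.70, Ctsl by -0.64 and Foxn1 by -0.57. Kitl was 1.60-fold higher in AireKO, at 0.68, which 3.20% of measured genes reached or passed. Of the 8 measured members, 7 had their lowest value in AireKO as deposited, as did 52.8% of measured genes. The exception was Kitl, lowest in Sirt1cKO as deposited. That was a near tie with WT: its Sirt1cKO minus WT difference, -0.03, turned positive under all 4 other scalings. Some of the 7 were near ties: AireKO minus Sirt1cKO was -0.0012 for Ccl25 and -0.07 for Ly75, and AireKO minus WT was -0.03 for Il7. These 3 differences turned positive under all 4 other scalings. Foxn1, Prss16, Ctsl and Dll4 stayed lowest in AireKO under each. Psmb11 and Cxcl12, within background in AireKO, are not ranked. Xist differed by -4.71 in AireKO minus Sirt1cKO, so genotype and sex cannot be told apart here either.

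The differences also have to be read against brightness. Over all genes in 10 bins of mean brightness, the median AireKO minus WT difference was 0.35 in the dimmest bin and lay between -0.30 and -0.16 in the 5 brightest. The same medians for Sirt1cKO minus WT were 0.14 in the dimmest bin and between -0.10 and -0.05 in the 5 brightest. Foxn1, Ctsl, Prss16 and Dll4 fell in these bright bins and lay below the bin medians in both comparisons.

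**Figure D3:**
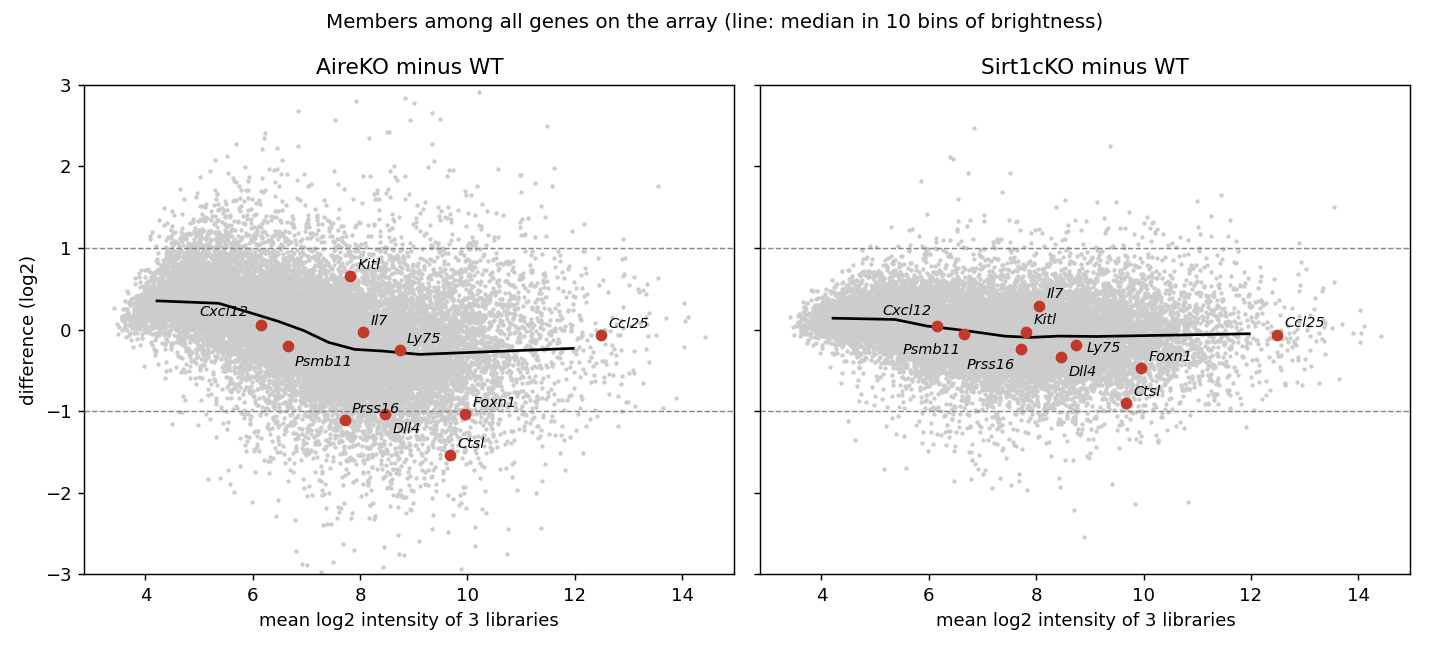
Log2 difference from WT (vertical axis) against mean log2 intensity of the 3 libraries (horizontal axis) for all 19937 genes (grey), with the 10 genes in red, the median of 10 brightness bins as a line and 2-fold dashed. The axis ends at 3, which leaves out 33 genes in AireKO minus WT and 4 in Sirt1cKO minus WT. Ctsl, Prss16, Foxn1 and Dll4 lie below the line in AireKO, and Kitl above it.

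With 3 libraries, the profile of a gene is a pair of differences from WT, and likeness was measured as the Euclidean distance between such pairs over measured genes. The genes nearest to Foxn1 were Rbck1, Dcaf5 and Id1, at distances of 0.0093, 0.011 and 0.013. They are not singular, as 113 measured genes lay within 0.1 of Foxn1. Nearest to Dll4 were Cmpk2, Mta2 and Ppil1, with 106 genes within 0.1. Cmpk2, at 6.62, and Ppil1, at 6.16, were within background in AireKO, so their rank is unsure. Mbd6, Psmd5 and Scand1 were nearest to Prss16, with 54 genes within 0.1. Ctsl had fewer close profiles, 16 within 0.1, led by Gnl3l, Nans and H2-Q2 at distances of 0.025, 0.034 and 0.040.

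Other genes of the same roles are given next, and the counts in AireKO minus WT stand against background shares of 8.46% for lower and 2.68% for higher. Counts in Sirt1cKO minus WT, here and in the next paragraphs, stand against 1.68% for lower and 0.804% for higher. Of 8 other cortical or Foxn1-linked epithelial genes, 0 were at least 2-fold lower or higher in AireKO, with a median difference of -0.35. Of these, 5 lay below WT and 3 above it in AireKO. Counts by sign in AireKO stand against 63.7% of measured genes below WT. Krt8 differed by -0.89 and Krt18, its partner keratin, by -0.28 in AireKO minus WT. The 3 above WT were Tbata at 0.43, the chemokine scavenger gene Ackr4 at 0.15 and Cd83 at 0.11, given after their values were seen. Enpep, which encodes the Ly51 antigen of the sort and was picked after its values were seen, had a log2 intensity of 7.24 in AireKO, 7.75 in Sirt1cKO and 7.95 in WT. Of 9 regulators of thymic epithelium other than Foxn1, 8 were on the array with a single symbol and 0 passed 2-fold in either comparison. Among these, Eya1, a cofactor of thymus formation, differed by 0.80 and Trp63, the epithelial progenitor factor p63, by 0.30 in AireKO minus WT. In all, 4 of the 8 lay below WT in AireKO and 4 above it, and the lowest was Six4 at -0.26, which turned positive after median centring. In Sirt1cKO minus WT Eya1 and Trp63 differed by 0.90 and 0.58. After median centring Eya1 was past 2-fold in AireKO, at 1.07.

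Lysosomal proteases other than Ctsl stood low as well. Of 6, 4 were at least 2-fold lower in AireKO than in WT and 0 higher, with a median difference of -1.23, or -0.96 after median centring. Ctsd, the aspartic protease cathepsin D, had a log2 intensity of 9.16 in AireKO, 10.32 in Sirt1cKO and 10.88 in WT. It differed by -1.72 in AireKO minus WT. Ctsh, cathepsin H, differed by -1.33 in AireKO and by -1.36 in Sirt1cKO, and it was the 1 gene of the 6 past 2-fold in Sirt1cKO. Ctsz and Ctsb differed by -1.32 and -1.13 in AireKO, and Ctsb lost 2-fold under all 4 other scalings. The AireKO difference of Ctsl lay between those of Ctsd and Ctsh.

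The proteasome subunits that share the catalytic role of Psmb11 were also mostly below WT. Of 6 catalytic subunits, 1 was at least 2-fold lower in AireKO, Psmb6 at -1.15, and 0 were higher, with a median of -0.64. In Sirt1cKO 0 passed 2-fold and the median was -0.58. Psmb5, whose place β5t takes in the thymoproteasome, differed by -0.90 in AireKO and -0.57 in Sirt1cKO. The brightest, Psmb10, differed by -0.27 in AireKO and 0.20 in Sirt1cKO. Psmb6 lost 2-fold under all 4 other scalings.

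Dll4 was not the Notch ligand that differed most. Jag1, another Notch ligand, had a log2 intensity of 7.45 in AireKO, 8.91 in Sirt1cKO and 9.48 in WT. Its AireKO minus WT difference of -2.03, or 4.08-fold lower, stayed past 2-fold under every scaling tried. Of the 4 other Notch ligands Jag1 was the 1 past 2-fold, and Jag2 differed by -0.61. Of 6 other cytokines, 1 was at least 2-fold higher in AireKO and 0 lower. That gene was Il15, a cytokine of natural killer and memory T cells, at 10.44 in AireKO, 9.11 in Sirt1cKO and 8.98 in WT. Its difference of 1.46 in AireKO minus WT held under every scaling, while Tgfb2 differed by 0.09. In Sirt1cKO 0 of these ligands and cytokines passed 2-fold.

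Among other thymic chemokines, Ccl22 stood lower in AireKO under every scaling tried. Of 6 other chemokines with a single symbol, 2 were at least 2-fold lower in AireKO than in WT and 0 higher, and in Sirt1cKO 0 passed 2-fold either way. Ccl22, a ligand of Ccr4, had a log2 intensity of 9.19 in AireKO, 10.66 in Sirt1cKO and 10.77 in WT, and was 2.98-fold lower in AireKO than in WT. Ccl19, a ligand of Ccr7, was 2.00-fold lower in AireKO, a value that fell short of 2-fold under all 4 other scalings. Cxcl10 differed by 0.44 in AireKO and 0.47 in Sirt1cKO. The receptors through which the members act, chiefly on thymocytes, had 0 of 6 past 2-fold in either comparison. Notch1 differed by -0.96 and Kit by -0.51 in AireKO.

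**Figure D4:**
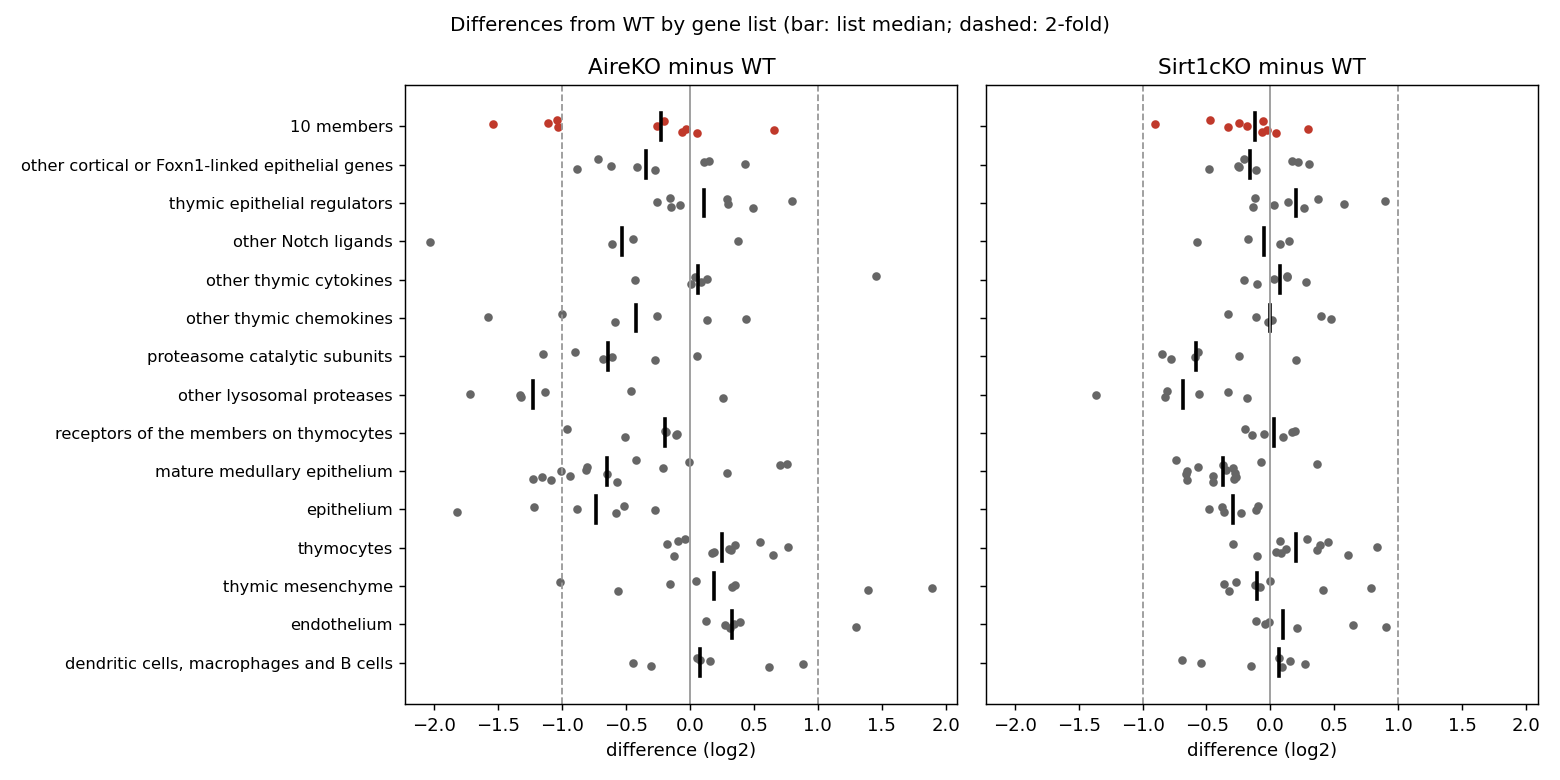
Log2 difference from WT (horizontal axis) of every gene (points) in the 10 members and 14 other lists (rows), in AireKO (left) and Sirt1cKO (right), with the list median as a bar and 2-fold dashed, 1 library a genotype. Lysosomal proteases have the lowest median in both panels, at -1.23 and -0.69, and the members range from -1.54 to 0.66 in AireKO.

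Markers of the sorted cells themselves, and of other cells, are given next, and their part in the members' differences was not tested. Their 2-fold counts stand against the same background shares, 8.46% for lower and 2.68% for higher. Counts by sign in AireKO again stand against 63.7% of measured genes below WT. Of 15 mature medullary genes, 4 were at least 2-fold lower in AireKO and 0 higher, with a median of -0.65. These were Cldn4 at -1.23, Cldn3 at -1.16, Krt5 at -1.09 and Relb at 2.01-fold lower. After median centring 0 were 2-fold lower and 1 was 2-fold higher. The brightest of the list, the MHC class II genes H2-Aa and H2-Ab1, differed by -0.65 and -0.94. Of the 15, 12 lay below WT in AireKO and 3 above it. The 3 above were Cd80 at 0.76, Cd86 at 0.70 and Ciita at 0.29, given after their values were seen. Of 6 general epithelial genes, 2 were at least 2-fold lower in AireKO, Krt19 at -1.82 and Cdh1 at -1.22, and all 6 lay below WT. Summed intensity of the 6 was 14279 in AireKO, 18857 in Sirt1cKO and 23516 in WT. The 12 thymocyte genes summed to 2011 in AireKO, 2033 in Sirt1cKO and 1634 in WT, with 0 past 2-fold. In AireKO minus WT 8 lay above 0 and 4 below. Within background were 5 in AireKO, 4 in Sirt1cKO and 4 in WT, so the sums include background signal. The median AireKO minus WT difference of the 12 was 0.25 as deposited, 0.04 after quantile normalization and 0.06 after loess. It was 0.52 after median centring and 0.44 with the median difference of measured genes set to 0. The brightest, Cd8b1 and Cd3g, differed by 0.77 and 0.55, and the lowest difference was that of Cd4, at -0.18.

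The sort for EpCAM+ and CD45- cells would remove mesenchymal, endothelial and most blood cells. The 8 mesenchymal genes summed to 5047 in AireKO, 2862 in Sirt1cKO and 2239 in WT. Without Dcn the other 7 summed to 1015 in AireKO, 989 in Sirt1cKO and 1155 in WT, a sum added after the values were seen. Of the 8, 2 passed 2-fold on the higher side in AireKO and 1 on the lower. Dcn, the matrix proteoglycan decorin, was 3.72-fold higher, at 11.98 in AireKO, 10.87 in Sirt1cKO and 10.08 in WT. The other higher gene, Lum, was within background in all 3 libraries, as was the defining receptor gene Pdgfra, and the lower one was Pdgfrb at -1.02. Col1a1, a fibrillar collagen chain, differed by -0.16. Of the 6 endothelial genes, 4 were within background in AireKO, 2 in Sirt1cKO and 2 in WT, and their sums are not compared. The 1 past 2-fold, Emcn, was within background in all 3 libraries. Tek and Pecam1, the brightest of them, differed by 0.27 and 0.13 in AireKO minus WT. The 7 genes of dendritic cells, macrophages and B cells had 0 past 2-fold, and 3 were within background in AireKO, 3 in Sirt1cKO and 1 in WT. Csf1r and Cx3cr1, the brightest, differed by -0.44 and 0.89 in AireKO minus WT.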

How the data were processed

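Expression was measured on 3 microarrays, 1 per genotype. The authors deposited probe-set intensity values on a linear scale, with RMA listed as the tool per the submitters' processing notes. As to its version, software, annotation and any return to a linear scale, these were not given in the sources used here. The number of arrays limits the precision.

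Here log2 of each intensity was taken with no further normalization. Of 34760 probe sets, 21640 had 1 symbol in the platform annotation, 1321 several and 11799 none listed. Probe sets with several symbols named no gene, and the brightest probe set by mean represented a gene, which gave 19937 genes. Genes were counted at a 2-fold difference with no test. The text names the 10 members, the targeted genes, list genes past 2-fold (at most 4) and the 2 brightest of each list, and the 3 profiles nearest to Foxn1 and to members past 2-fold. Sex-linked genes, Enpep, list genes given to show both directions and genes named to describe background were named beyond that rule. Members and lists were chosen with earlier results of these data known. The alternatives tried were other scalings, including a loess span of 0.3, other uses of probe sets, filters, folds of 1.5 and 3, and exchanged labels. Setting the median difference to 0 was added after seeing the data. Counting was tested on simulated data. Scripts ran on numpy 2.4.6, statsmodels 0.14.6 and pandas 2.3.3 under Python 3.11.15, with figures by matplotlib 3.10.9.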

Additional observations from a re-analysis of the deposited data

How the results depend on the processing

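In AireKO minus WT the number of members at least 2-fold lower, 4 as deposited, became 2 after quantile normalization, 1 after loess, 1 after median centring and 1 with the median difference of measured genes set to 0. It became 0 at 3-fold, against 1.86% of measured genes, and 0 with the labels of AireKO and Sirt1cKO exchanged, against 1.68%. At 1.5-fold it stayed at 4 while the share of measured genes rose to 23.6%. At that fold 1 member, Kitl, was higher, against 8.52% of measured genes. The median difference of the members became 0.041 after median centring, which moved all AireKO minus WT differences by 0.27. After quantile normalization and loess the member median was -0.28 and -0.26. In Sirt1cKO minus WT the number lower, 0 as deposited, became 1 at 1.5-fold, against 8.27% of measured genes, and 4 with the labels exchanged. In AireKO minus Sirt1cKO 3 members were lower and 1 higher at 1.5-fold, against 11.8% and 4.55% of measured genes, and the median became 0.23 with the labels exchanged. The exchange swaps 2 columns, and a different fold counts different genes, so those changes follow from their construction. The cause of the changes with scaling was not tested. The summed intensity of the mesenchymal genes in AireKO minus WT, 2809, became -141 without Dcn, a sum added after the values were seen. The filters, the averaging of probe sets, probe sets with several symbols and values set to the background bound left the count at 4.

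Signal over background limits Psmb11 and Cxcl12 in AireKO, which lie within background, and Prss16, which lies 0.17 above it. No paired analysis was possible because each genotype had 1 library. For the same reason no replicate was left out.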
